A study of Mus musculus with 3 samples.

Results

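The period genes Per1, Per2 and Per3 carried 5 of the 2127 sites that the deposited annotation lists for CLK (CLOCK) and BMAL1 in the mouse liver. A site was taken when its annotated gene was Per1, Per2 or Per3, whatever its class, and was joined to any peak of the CLK or BMAL1 list that shared at least 1 bp with it. Per1 had 3 sites, Per2 had 1 and Per3 had 1. Together they held 5 peaks of the CLK list, which has 759, and 4 of the BMAL1 list, which has 1578. At 4 of the 5 sites both factors had a peak, and these 4 are among the 212 overlapping pairs of the whole experiment. Over all peaks the share that met a peak of the other list was 27.8% for CLK and 13.4% for BMAL1. Liver chromatin came from adult male C57BL/6 mice, 3 to 6 months old, held on 12 h of light and 12 h of darkness for at least 2 weeks and taken at ZT8 (8 h after lights on). All 3 libraries were made from the same liver extract, 1 with an anti-CLK antibody, 1 with an anti-BMAL1 antibody and 1 without antibody (Input), and the number of livers in that extract is not given in the sources used here. After removal of duplicate tags, 33057959 CLK tags, 25217144 BMAL1 tags and 18206506 Input tags remained. No library was replicated, so the intervals below cover counting error only, and no value tests a difference between animals.

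CLK and BMAL1 are basic helix-loop-helix proteins that bind DNA as a pair, preferably at the hexamer known as the e-box, and activate transcription during the day. The period genes are among their best known targets. PER1 and PER2 join the cryptochromes in a complex that enters the nucleus and represses CLK:BMAL1, which closes the negative feedback loop of the clock, while PER3 is largely dispensable for that loop. Besides e-boxes, clock genes are read through D-boxes, the targets of DBP, TEF, HLF and NFIL3, through RRE elements, the targets of ROR and REV-ERB receptors, and through cAMP response elements (CRE).

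The sequences under the peaks are shown first because the Period sites differ in the elements they hold. They were read from the mm9 genome in the direction of the gene, and the capitals mark the e-box CACGTG at Per1 and the D-box TTATGTAA at Per3. The Per1 sequence at the first start site is chr11:68908371-68908669 on the plus strand, and the one at the second start site is chr11:68912201-68912449. The one at the CLK only site, where a CLK peak but no BMAL1 peak was called, is chr11:68911164-68911244. The Per3 sequence is chr4:150418775-150419023 on the minus strand. All 4 stretches end before an annotated start or lie within an intron.
Per1 at the first start site: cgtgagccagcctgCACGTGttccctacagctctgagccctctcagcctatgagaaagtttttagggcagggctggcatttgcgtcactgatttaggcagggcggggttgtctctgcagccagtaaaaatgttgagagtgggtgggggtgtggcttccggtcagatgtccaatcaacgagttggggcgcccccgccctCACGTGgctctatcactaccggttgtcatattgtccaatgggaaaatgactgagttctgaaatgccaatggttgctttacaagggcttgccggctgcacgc
Per1 at the second start site: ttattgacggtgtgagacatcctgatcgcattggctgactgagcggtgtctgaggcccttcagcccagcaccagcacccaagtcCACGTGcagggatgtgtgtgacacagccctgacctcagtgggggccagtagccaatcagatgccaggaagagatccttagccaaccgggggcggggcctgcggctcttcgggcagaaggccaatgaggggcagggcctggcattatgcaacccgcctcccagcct
Per1 at the CLK only site: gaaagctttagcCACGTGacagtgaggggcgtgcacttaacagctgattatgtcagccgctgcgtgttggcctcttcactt
Per3 at the start site: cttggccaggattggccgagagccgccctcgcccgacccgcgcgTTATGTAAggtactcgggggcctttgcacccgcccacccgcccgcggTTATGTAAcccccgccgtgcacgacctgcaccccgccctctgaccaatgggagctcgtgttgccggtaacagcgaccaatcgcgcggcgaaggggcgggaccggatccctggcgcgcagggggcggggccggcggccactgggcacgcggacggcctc

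The first question is where on the period genes the factors were found. At all 3 genes CLK and BMAL1 peaks covered an annotated start of transcription, though not every annotated start of Per1. On Per1, which lies on the plus strand of chromosome 11, the CLK peak at the first start site ran from 68908069 to 68908987 and the BMAL1 peak from 68907897 to 68909078. In GENCODE M1 the transcript that begins there is Per1-003, at 68908719, and both summits (the position of highest signal in a peak) lay upstream of it, outside the gene. The CLK summit was 60 bp and the BMAL1 summit 338 bp before that start. The other shared Per1 site covered 68911954 to 68912559 for CLK and 68911905 to 68912576 for BMAL1. In the deposited annotation, which uses 1 Per1 transcript starting at 68908756, it is a site inside the gene, with its CLK summit 3517 bp downstream of the start. GENCODE M1 places the start of another Per1 transcript, Per1-001, at 68912450, and relative to that start the CLK summit lay 177 bp and the BMAL1 summit 194 bp upstream. The site is therefore intronic for the transcript that begins first and promoter-proximal for the one that begins second. RefSeq promoter entries (GRCm38.p6) of the period genes number 3, of which all 3 were found letter for letter in mm9, and the first Per1 entry starts at 68912451, within 1 bp of the GENCODE position. The other Per1 entry starts at 68913654, and none starts at 68908719. GENCODE M1 also begins Per1 transcripts at 68913654, 68913660 and 68914024, downstream of every Per1 peak.

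The third Per1 site was a CLK peak with no BMAL1 peak, from 68911023 to 68911443. Its summit lay in the intron, 2468 bp downstream of the annotated start and 1226 bp upstream of the second GENCODE start. On Per2, on the minus strand of chromosome 1, the CLK peak ran from 93355697 to 93356403 and the BMAL1 peak from 93354999 to 93356413. The CLK summit lay 121 bp upstream of the start at 93355907, and the BMAL1 summit lay 35 bp downstream of it, in the untranslated first exon. On Per3, on the minus strand of chromosome 4, the CLK peak ran from 150418568 to 150419104 and the BMAL1 peak from 150418471 to 150419165. Their summits lay 60 bp and 43 bp upstream of the start at 150418774. The deposited annotation counts distance in genome coordinates without regard to strand, so every distance given here was recomputed in the direction of the gene. The map of the 3 genes draws the peaks over the annotated transcripts.

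**Figure D1:**
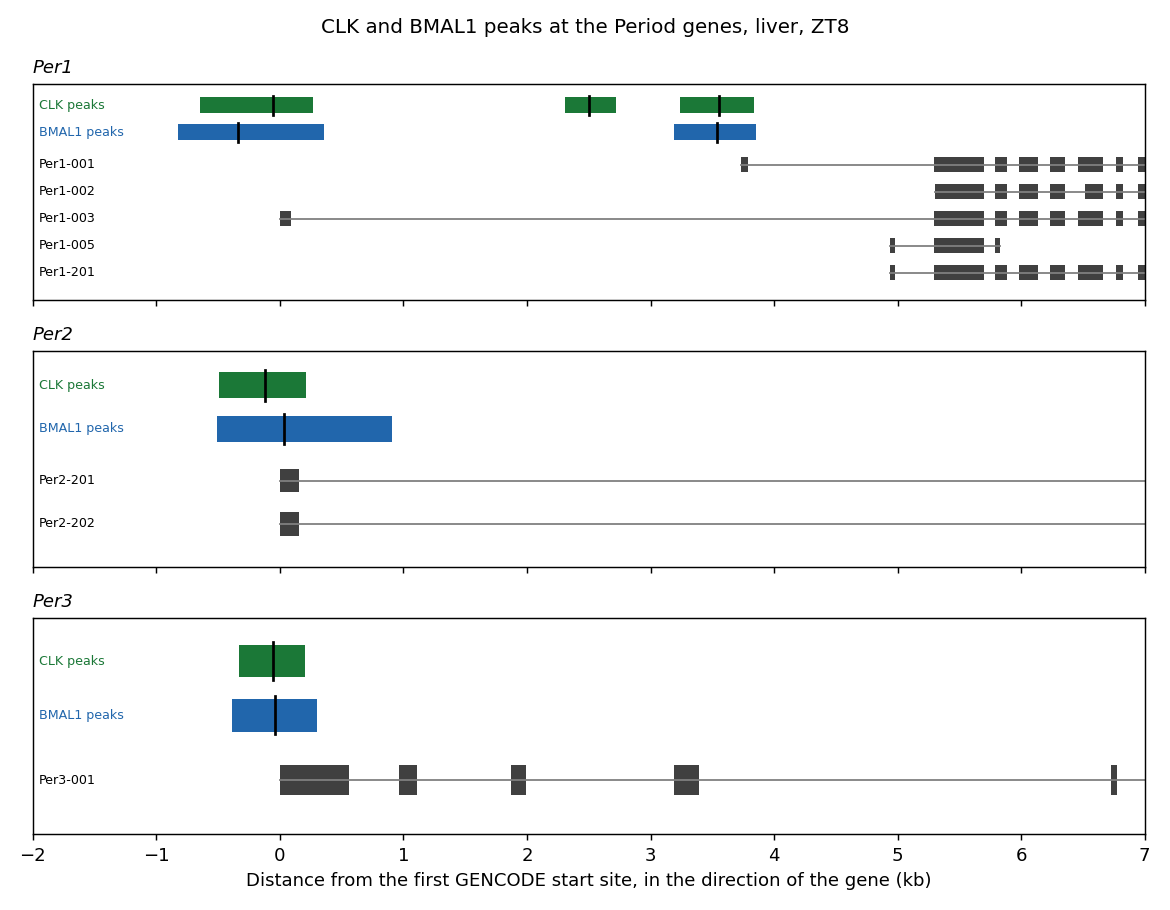
CLK peaks (green) and BMAL1 peaks (blue) at Per1, Per2 and Per3, with GENCODE M1 protein-coding transcripts below (dark boxes, exons); the x axis is the distance in kb from the first GENCODE start of each gene, in the direction of transcription, and black ticks are summits. Per1 has 3 CLK peaks and 2 BMAL1 peaks, the last of them with its summit just before the first exon of Per1-001 and its end past it, whereas Per2 and Per3 have 1 of each, over the start.

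The second question is how strong these sites were. MACS, the peak caller used by the authors, gives each peak its number of tags, a score (10 times the negative log10 of its p-value, with the calling limit at 50), a fold enrichment over the local Input and a false discovery rate (FDR) in percent. At the first start site of Per1 the CLK peak held 171 tags, with a counting interval (exact Poisson, 95%) of 146 to 199, a score of 701.37 and a fold enrichment of 14.45. It had the highest score of all 759 CLK peaks, and its fold enrichment ranked 8 and its tags ranked 11. The BMAL1 peak there held 194 tags (168 to 223), with a score of 1018.17, rank 6 of 1578, and a fold enrichment of 28.37, rank 7. The FDR was 0% in both lists. For comparison, the median peak had 23.0 tags in either list, and a fold enrichment of 6.35 for CLK and 6.79 for BMAL1.

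At the second start site of Per1 the CLK peak held 78 tags (61.7 to 97.3) and the BMAL1 peak 73 tags (57.2 to 91.8). The fold enrichments were 13.85 and 20.38, close to those at the first start site for CLK but lower for BMAL1. Their scores were 276.47 for CLK, rank 14, and 285.95 for BMAL1, rank 32. For CLK the FDR was 7.14%, and for BMAL1 it was 0%. At the Per1 CLK only site no BMAL1 peak was called, and BMAL1 tags there were not counted. The CLK peak held 31 tags (21.1 to 44.0), with a score of 51.05, just above the calling limit, and a fold enrichment of 4.98. It ranked 676 by score and 679 by fold enrichment. Its FDR was 5.77%. This site is among the weakest of the CLK list by both measures, though its tags ranked 233.

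Per2 was among the leading sites of the BMAL1 list. The BMAL1 peak there held 165 tags (141 to 192) and had a score of 602.34, rank 9, a fold enrichment of 15.33, rank 49, and an FDR of 0%. The CLK peak held 74 tags (58.1 to 92.9), with a score of 194.39, rank 25, a fold enrichment of 9.13, rank 66, and an FDR of 12.0%. Per3 was weaker in both lists. Its BMAL1 peak held 66 tags (51.0 to 84.0) and had a score of 202.19, rank 62, a fold enrichment of 14.27, rank 58, and an FDR of 0%. Its CLK peak held 38 tags (26.9 to 52.2) and had a score of 57.21, rank 419, a fold enrichment of 4.8, rank 686, and an FDR of 5.24%. The CLK score at Per3 was close to the median of its list, 59.2, and its tags ranked 160.

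A score of at least 100 was reached in both lists at 3 of the 4 shared sites, all but Per3. Over each whole list, shared peaks or not, 12.4% of CLK peaks and 14.8% of BMAL1 peaks reached it. These shares are of single lists, and the share of overlapping pairs that reached it in both was not computed. An FDR of at most 5% was reached by all 4 BMAL1 peaks (47.7% of the BMAL1 list) but in the CLK list (21.3%) only by the peak at the first start site of Per1. Among the other CLK peaks the FDR did not follow the score. It was 7.14% at the second start site of Per1 (score rank 14) and 12.0% at Per2 (rank 25). At Per3 (rank 419) and the CLK only site (rank 676) it was 5.24% and 5.77%. Per 1000000 tags of its library, CLK stood at 5.17 (4.43 to 6.01) at the first start site of Per1, 2.36 (1.87 to 2.94) at the second, 2.24 (1.76 to 2.81) at Per2, 1.15 (0.813 to 1.58) at Per3 and 0.938 (0.637 to 1.33) at the CLK only site. Neighbours in this order whose intervals overlapped were the second start site of Per1 and Per2, and then Per3 and the CLK only site. BMAL1 stood at 7.69 (6.65 to 8.86) at the first start site of Per1, 6.54 (5.58 to 7.62) at Per2, 2.89 (2.27 to 3.64) at the second start site of Per1 and 2.62 (2.02 to 3.33) at Per3. Here the intervals of the leading pair overlapped, as did those of the last pair, and a gap lay between Per2 and the second start site of Per1. These orders are of tags in whole peaks, and they differ from those by fold enrichment, where BMAL1 at Per2 (15.33) stood below both Per1 sites and next to Per3 (14.27).

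**Figure D2:**
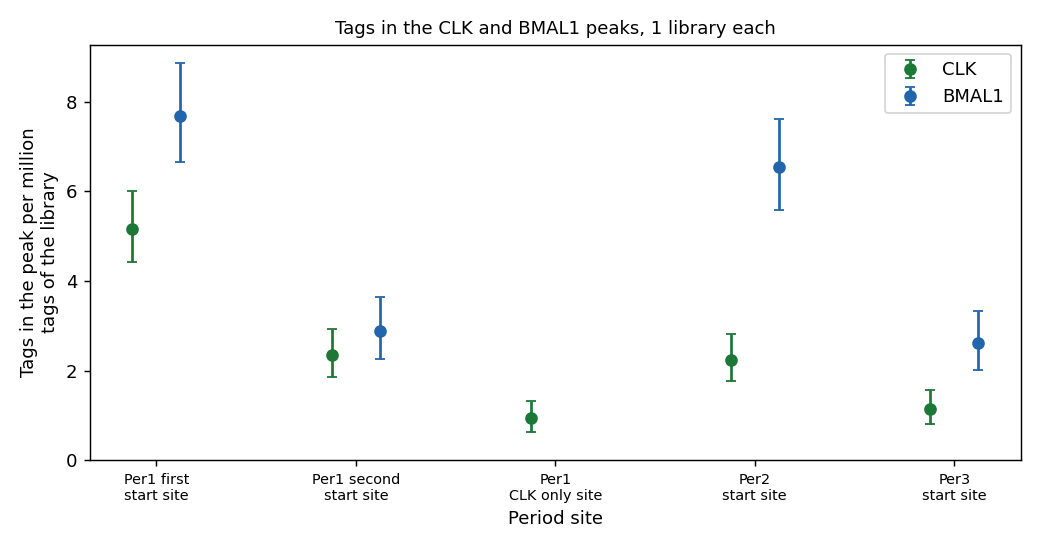
Tags in the CLK peak (green) and the BMAL1 peak (blue) of each Period site, per 1000000 tags of the library after removal of duplicates; 1 library per antibody, points are single values and bars are exact 95% Poisson intervals. BMAL1 reaches 7.69 at the first start site of Per1 and 6.54 at Per2, while CLK reaches 5.17 and 2.24 there, and the CLK only site has no BMAL1 point.

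Counts in a peak grow with its width, and the widths differed. At the first start site of Per1 the CLK peak was 919 bp and the BMAL1 peak 1182 bp wide, and at the second they were 606 bp and 672 bp. The CLK only peak was 421 bp wide. At Per2 the CLK peak was 707 bp wide and the BMAL1 peak 1415 bp, the fifth widest of the BMAL1 list. At Per3 they were 537 bp and 695 bp, and the medians of the lists were 390 bp and 466 bp. All 4 CLK peaks lay wholly inside their BMAL1 peak, as did 59.9% of all overlapping pairs. The BMAL1 peak was 1.29 times as wide as the CLK peak at the first start site of Per1, 1.11 times at the second, 1.29 times at Per3 and 2.00 times at Per2, where the median of all pairs was 1.22 and Per2 ranked 10 of 212. Per kb of peak, CLK had 186 tags at the first start site of Per1, 129 at the second, 105 at Per2, 73.6 at the CLK only site and 70.8 at Per3. BMAL1 had 164 tags per kb at the first start site of Per1, 109 at the second and 117 at Per2, with fewer at Per3, so on this scale Per2 stood next to the second start site of Per1.

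The third question is how the tags of the CLK peak compared with those of the BMAL1 peak at each site. The peaks were called separately in each list and differ in width, so the ratio over whole peaks reads the extent of each call as well as its height. After scaling each count to the depth of its library, the ratio of CLK to BMAL1 tags was 0.672 (95% interval from the exact binomial share, 0.544 to 0.830) at the first start site of Per1 and 0.815 (0.585 to 1.14) at the second. It was 0.342 (0.256 to 0.453) at Per2 and 0.439 (0.287 to 0.664) at Per3. The median over all 212 pairs was 0.645, with an interquartile range of 0.502 to 0.822, so both Per1 sites lay inside that range and both other genes below it, Per2 at rank 204 of 212 and Per3 at rank 183. The whole-peak ratio at Per2 differed from those at both Per1 sites by two-sided Fisher's exact tests with Benjamini-Hochberg adjustment over the 6 pairs of sites. The ratio at the first start site of Per1 was 1.97 times that at Per2 (exact test, adjusted p = 2.94e-04), and the ratio at the second was 2.38 times that at Per2 (exact test, adjusted p = 2.94e-04). The second start site of Per1 also exceeded Per3, by 1.86 times (exact test, adjusted p = 0.0424). The first start site of Per1 was 1.53 times Per3 (exact test, adjusted p = 0.110), the Per1 sites stood at 0.825 of each other (exact test, adjusted p = 0.334) and Per2 at 0.779 of Per3 (exact test, adjusted p = 0.334), and these 3 pairs did not pass 0.05.

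None of these 3 calls held when the tags of each site were scaled in proportion to the shorter of its peaks, which also lowers the counts. This scaling takes tags as evenly spread over a peak, as does the ratio per kb. Tags were not recounted in the stretch that both peaks cover, so the ratio there is not known. The ratios became 0.864 (0.690 to 1.08) and 0.902 (0.641 to 1.27) at the Per1 sites, 0.688 (0.496 to 0.954) at Per2 and 0.568 (0.363 to 0.882) at Per3, and 0 of 6 pairs differed by Fisher's exact test (adjusted p from 0.318 to 0.841, and 0 of 6 at an unadjusted p under 0.05). The differences from Per2 shrank, to 1.25 times for the first and 1.31 times for the second start site of Per1, whereas the second start site of Per1 remained 1.59 times Per3 (exact test, adjusted p = 0.318). By fold enrichment the order of Per2 and the first start site of Per1 turned, with ratios of CLK to BMAL1 of 0.596 and 0.509. The rank of Per2 among the 212 pairs went from 204 with whole peaks to 159 per kb of peak (ratio 0.685) and 143 by fold enrichment. Per3 kept a low rank by all 3 measures, 183, 191 (ratio 0.568) and 207 (ratio 0.336). The tests compare these libraries, and an antibody's efficiency at each site cannot be told apart from the amount of its factor there.

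The fourth question is whether both factors had their highest signal at the same position. At the second start site of Per1 and at Per3 the summits lay 17 bp apart, below the median of 21.0 bp over all pairs (interquartile range 11.8 to 46.2). At the first start site of Per1 the summits were 278 bp apart, rank 12 of 212, with BMAL1 upstream of CLK. At Per2 they were 156 bp apart, rank 17, with BMAL1 downstream of CLK. Only 10.4% of all pairs had summits more than 100 bp apart, and 2 of the 4 Period pairs were among them. The summit is a single position without an error in the deposited lists, so these distances have no interval. Per2 thus stood outside the interquartile range of all pairs in relative width and in summit distance, whereas the second start site of Per1 stood inside it in both.

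**Figure D3:**
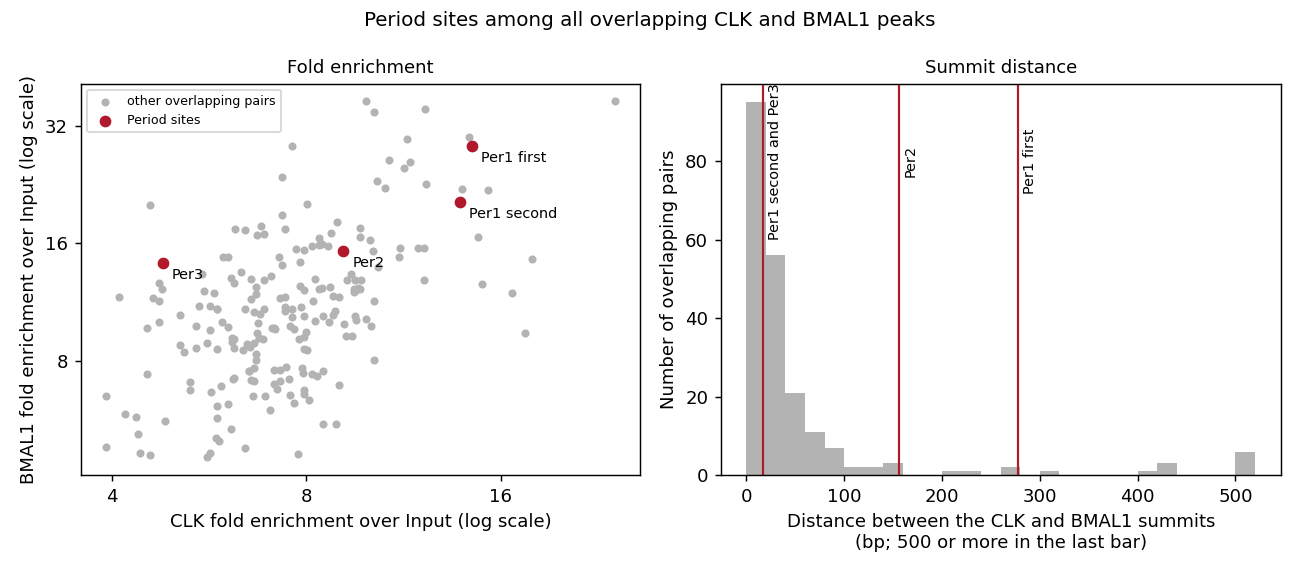
Left, fold enrichment over Input of CLK (x) and BMAL1 (y) for all 212 overlapping pairs on log axes, with the 4 Period pairs in red (Per1 first and Per1 second are its start sites); right, distance in bp between CLK and BMAL1 summits of all pairs, with red lines at the Period pairs. Both Per1 sites lie at the upper right, with 14.45 and 13.85 for CLK, Per3 lies at the left at 4.8, and the lines stand at 17, 156 and 278 bp.

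The fifth question is which known elements lie under the summits. CACGTG and the other motifs named here were searched on both strands, and a match is a string of letters and not a measured binding site. Within 100 bp of the CLK summit, CACGTG was found at 3 of the 5 Period sites, all at Per1. Of all CLK peaks with a BMAL1 peak 59.2% had it in that window, of CLK peaks without one 10.4%, and it occurred in 7.66% of 45982 promoters (300 bp around GENCODE starts of protein-coding transcripts). The first start site of Per1 had 2 copies in its peaks, both printed above. One, at 68908385 to 68908390, lay 4 bp from the BMAL1 summit and 269 bp from the CLK summit, counted here as elsewhere to the nearest base of the motif. The other, at 68908569 to 68908574, lay 85 bp from the CLK summit and 188 bp from the BMAL1 summit. The CLK and BMAL1 summits of that site thus lie on either side of the copy nearer to the start, and the BMAL1 summit lies beside the other.

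At the second start site of Per1 a CACGTG at 68912285 to 68912290 lay 12 bp from the CLK summit and 29 bp from the BMAL1 summit, between them and the start. A further copy at 68911922 to 68911927 lay 346 bp from the CLK summit, inside the BMAL1 peak but outside the CLK peak. The same promoter held an AGGTCA, the core of the RRE, at 68912314 to 68912319, 41 bp from the CLK summit, a string that 14.1% of promoters hold. The CLK only site of Per1, weak as it was, had its CACGTG 43 bp from the summit, at 68911176 to 68911181.

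Neither Per2 nor Per3 had a CACGTG in its peaks. At Per2 the variant CACGTT lay at 93355891 to 93355896, in the untranslated first exon, 19 bp from the BMAL1 summit and 132 bp from the CLK summit. Within 100 bp of the BMAL1 summit this variant was found in 13.7% of BMAL1 peaks with a CLK peak, and it occurred in 4.91% of promoters. The CLK summit of Per2 lay 2 bp from a D-box TTATGTAA at 93356019 to 93356026, which was 147 bp from the BMAL1 summit, and 3 bp from CACATG, a form of the e-box with 1 mismatch. Within 100 bp of the CLK summit, 6.64% of shared CLK peaks and 0.730% of the others had this D-box, as did 0.789% of promoters. It was thus uncommon, but more frequent at shared CLK peaks than at the others. Per3 had 2 D-boxes of this form, at 150418925 to 150418932 and at 150418972 to 150418979, which lay 91 bp and 138 bp from the CLK summit. Only 7 of 45982 promoters (0.0152%) held at least 2. Of e-box forms, Per3 had CGCGTG 45 bp and CACGAG 40 bp from the CLK summit, each with 1 mismatch. A hexamer with at most 1 mismatch, CACGTG itself included, was present in 98.1% of shared CLK peaks (within 100 bp of the summit) and 65.4% of promoters.

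A D-box in the form TTACGTAA lay far from the summits at the first start site of Per1, at 68907994 to 68908001, and at Per2, at 93355672 to 93355679, in both cases inside the BMAL1 peak, outside the CLK peak and beyond the promoter window. Over whole peaks, which differ in width, the GC box GGGCGG was present 8 times at Per2 and 8 times at Per3. It was present 3 times at the first start site of Per1, 1 time at the second and 0 times at the CLK only site. In promoters of 300 bp it was present 7 times at Per3 and 3 times at Per2. The promoter at the first start site of Per1 held 3 and that at the second held 1, and 44.2% of all promoters held at least 1. No Period site had the full CRE, TGACGTCA, which 2.13% of promoters held. No Period site had a tandem pair either. This is an e-box or CACGTT with an e-box of at most 1 mismatch 6 or 7 bases before or after it. Of shared CLK peaks, 12.8% had such a pair within 100 bp of the summit. The map of motifs places the elements relative to summits and starts.

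**Figure D4:**
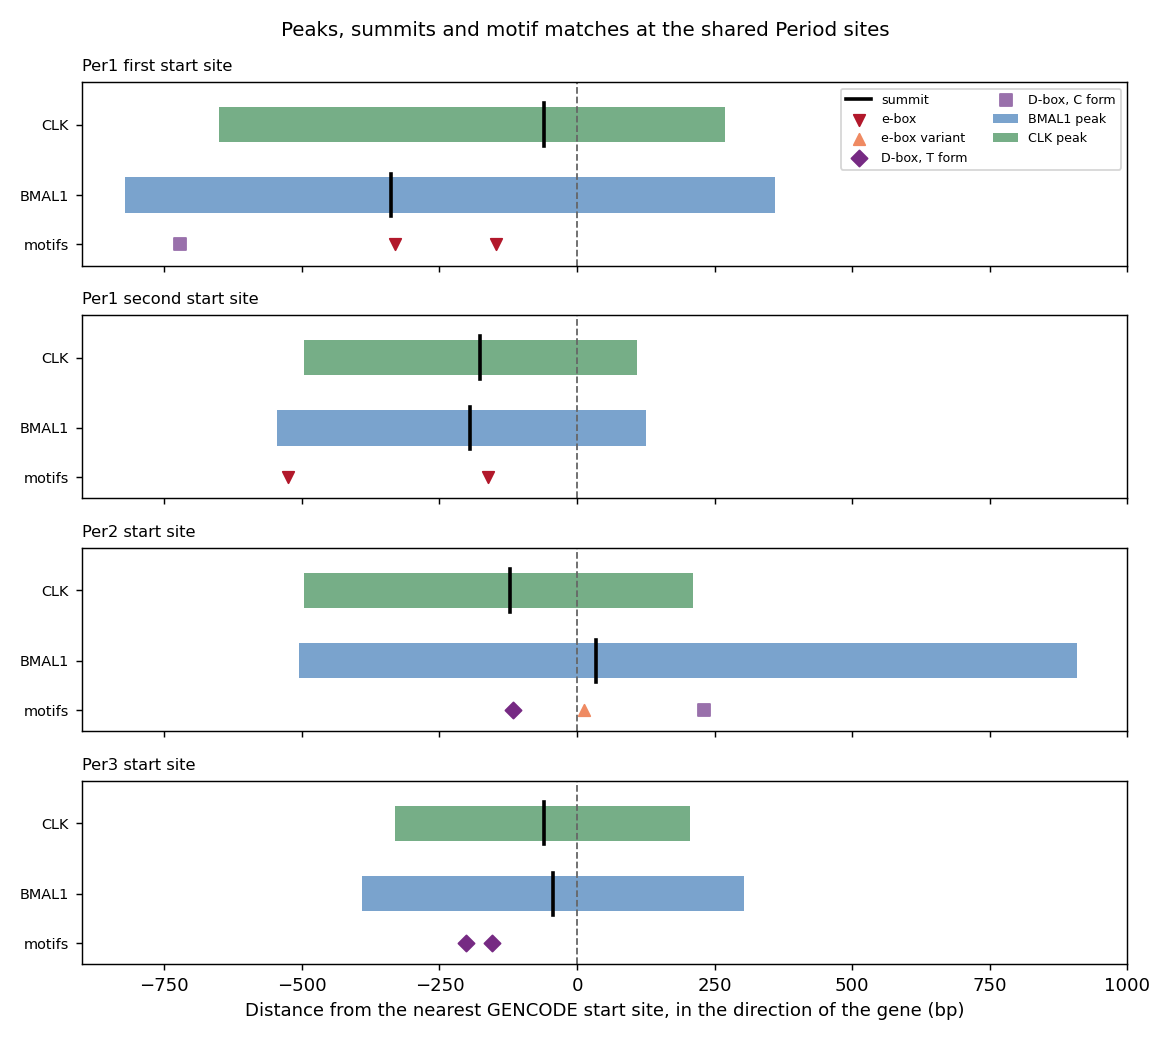
Peaks (bars), summits (black lines) and motif matches at the 4 shared Period sites against the distance in bp from the nearest GENCODE start, in the direction of the gene; e-box is CACGTG, e-box variant CACGTT, D-box T form TTATGTAA and D-box C form TTACGTAA. E-boxes appear at Per1 alone, the variant at Per2, and D-boxes of the T form at Per2, 2 bp from the CLK summit, and at Per3.

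Other clock genes put these values in context. Of 26 further clock genes listed, 10 had a site with both peaks, 5 had peaks of 1 factor only and 11 had no peak, whereas all 3 period genes had a shared site. Of the 1816 named genes with any peak, 188 (10.4%) had a shared site and 12 (0.661%) had at least 2. Per1 was among these 12, as were Nr1d1, Dbp, Bhlhe41 and Tef of the listed clock genes. The genes of the cryptochromes, the partners of the PER proteins in the repressor complex, each had 1 overlapping pair. Cry1 had 34 CLK and 74 BMAL1 tags, a whole-peak ratio of 0.350 and 0.709 per kb, against 0.342 and 0.685 at Per2. Cry2 had 68 and 135 tags and ratios of 0.384 and 0.470, so it stood near Per2 in the first and lower in the second. The CLK and BMAL1 summits of these genes were 3 bp and 8 bp apart, against 156 bp at Per2, and both had CACGTG within 100 bp of the CLK summit, which Per2 lacked. Gm129 (Ciart, a repressor of CLK:BMAL1) had 206 and 286 tags, a whole-peak ratio of 0.549 and 0.613 per kb, and summits 407 bp apart. With a CLK score of 676.18 it ranked 2, next to the first start site of Per1. Nr1d1, which encodes the repressor REV-ERB alpha, had 4 overlapping pairs. Their whole-peak ratios were 0.549, 0.276, 0.260 and 0.370, and per kb, in the same order, 0.519, 0.784, 0.621 and 0.523. However, 2 of these pairs (0.276 and 0.260) share 1 BMAL1 peak of 2460 bp and 382 tags and are not separate values. The summits of the pair at 0.260 were 1458 bp apart. None of these differences from the period genes was tested.

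The pairs most like each Period site were named by the distance in log2 fold enrichment of both factors, over all 212 pairs. For the first start site of Per1 these were sites at Dbp (CLK 14.28, BMAL1 29.89, distance 0.0772) and Bhlhe41 (11.45 and 29.59, distance 0.341), genes of a D-box activator and of an e-box repressor. For the second start site they were sites at AK036974 (distance 0.117) and Upp2 (distance 0.177), the latter a uridine phosphorylase. For Per2 they were Junb, an AP-1 subunit (8.64 and 15.75, distance 0.0886), and a site without a gene symbol on chromosome 17 (distance 0.123). For Per3 they were Osbpl2, of the oxysterol-binding protein family (4.74 and 12.68, distance 0.171), and AK087850 (distance 0.224).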

How the data were processed

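CLK and BMAL1 ChIP-seq of mouse liver at ZT8 was analysed from deposited peak lists, 1 library per antibody and 1 Input. The authors amplified libraries for 15 PCR cycles, sequenced 36 nt reads (CASAVA 1.6 and Bowtie, per the submitters' processing notes), mapped them to mm9 and called peaks with MACS against the Input (p-value cutoff 1e-05, a model fold of 5 and a band width of 80). The deposited columns are tags in a peak (counts), a score (10 times the negative log10 of the p-value), fold enrichment (a ratio to the local Input) and FDR (a percent). The annotation of each peak, with class, gene and distance, was also deposited by the authors. No expression values were used, so the tissue label could not be checked against marker genes.

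The summit was taken as the peak start plus the deposited summit value minus 1. Depth came from the file headers: 37371047 (CLK), 28920754 (BMAL1) and 18846303 (Input) mapped tags. Tags are not independent molecules, and intervals (exact Poisson, Clopper-Pearson) cover counting error only. Fisher's exact tests used scipy 1.17.1 (Python 3.11.15) and were checked on simulated data. Sequence and transcripts came from NCBIM37 (mm9), whose chromosomes contain every peak, and GENCODE M1. Promoters ran from 250 bp before to 50 bp after a start. Named were all Period sites, shared sites of Cry1, Cry2, Gm129 and Nr1d1, the 2 most similar pairs per site and neighbours within 50 kb. These members, lists and motifs were chosen with earlier results of these data known. Per2 has no entry among the RefSeq promoters used, and its sequence is not printed. Alternatives were other thresholds, overlaps, depths, measures of strength, motif windows and peak points.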

Additional observations from a re-analysis of the deposited data

How the results depend on the processing

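Across 21 results and 47 alternatives, 27 values stayed within their interval, within 50 bp or within 1.5 times, 19 moved further and 1 changed sign; for those that moved the cause was not tested. Shared Period sites numbered 4 with at least 50% of the shorter peak overlapped, 3 with a score of at least 100 and 1 with an FDR of at most 5% in both lists. With tags per kb of peak the CLK to BMAL1 ratio became 0.865 at the first start site of Per1 and 0.685 at Per2, and from fold enrichments 0.509 and 0.596, which turns the order of these sites. With tags scaled in proportion to the shorter peak, as if evenly spread, 0 in place of 3 pairs of sites differed in the ratio. Ranks depended on the measure. By fold enrichment, CLK ranks became 8 at the first start site of Per1, 66 at Per2 and 686 at Per3, and BMAL1 ranks 18 at the second start site of Per1 and 49 at Per2. By tags, CLK ranks became 11 and 30 at the start sites of Per1, 233 at its CLK only site and 160 at Per3, and the BMAL1 rank 56 at the second start site. From the start used in the deposited annotation, the first Per1 site lay at -97 bp by the CLK summit, -375 bp by the BMAL1 summit and -228 bp by the centre of the CLK peak, and Per2 turned from -123 bp to 33 bp with the BMAL1 summit. Sites with CACGTG near the summit numbered 2 within 50 bp, 3 within 250 bp and 5 with at most 1 mismatch. With the BMAL1 summit they numbered 3, a count that includes the CLK only site, which has no BMAL1 peak. With 1 library per antibody no replicate could be left out. No paired analysis was possible because each group held 1 sample.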

Other observations

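Within 50 kb of a Period start, 0 further peaks of either list lay near Per2 and 0 near Per3, and 1 lay near Per1. This was a BMAL1 peak without a CLK peak, on chromosome 11 from 68876278 to 68876775, with its summit 32146 bp upstream of Per1, and the deposited annotation gives it to 2310047M10Rik. It held 46 tags, with a score of 116.32, a fold enrichment of 8.84 and an FDR of 0.57%. Farther upstream, past that limit, were 2 more BMAL1 peaks without CLK, given to Aurkb, a mitotic kinase gene. They held 48 and 38 tags, with fold enrichments of 8.01 and 6.71 and scores of 80.63 and 64.78.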
